A study of Drosophila melanogaster with 25 samples.

Results

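The genes described here encode subunits of the mitochondrial respiratory chain of Drosophila melanogaster, together with their close relatives. They were chosen by symbol: every gene with a probe set of its own whose symbol starts with ND- (complex I), Sdh (complex II), UQCR- (complex III), COX (complex IV) or ATPsyn (complex V, the ATP synthase). This gave 73 of the 11982 genes named on the arrays, of which 32 belonged to complex I, 7 to complex II, 6 to complex III, 14 to complex IV and 14 to complex V. Where a gene had more than 1 probe set, the brightest on average was used. The RefSeq gene table lists 91 genes under the same prefixes, and the other 18, among them ND-49, SdhA, UQCR-C1, UQCR-C2 and the mitochondrially encoded COX1, COX2 and COX3, were not analysed here.

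RNA was measured on 25 Affymetrix arrays, 1 per sample, from imaginal discs dissected in the third larval instar. Imaginal discs are the larval epithelia from which adult appendages and eyes form. The groups were wild-type eye discs (4 arrays), antennal discs titled Uey, wild-type antennal discs, leg discs of ato mutants with UAS-ey, UAS-ey leg discs, wild-type leg discs, UAS-ey wing discs and wild-type wing discs (3 arrays each). UAS-ey is a transgene that makes Eyeless, a Pax6-type transcription factor at the top of eye development, where a GAL4 driver is active, and ato encodes the proneural factor that starts photoreceptor formation. The sources used here do not give the driver, the ato allele, the age within the instar or the number of larvae per sample, and Uey was taken as the antennal counterpart of UAS-ey from its title alone. The ato-mutant leg discs carried UAS-ey too, so the set has no ato mutant without the transgene.

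The respiratory chain passes electrons from NADH (complex I) and succinate (complex II) through complex III to complex IV, which reduces oxygen, and complex V uses the resulting proton gradient to make ATP. Most subunits are encoded in the nucleus and are needed in every growing tissue, and a few core subunits come from the mitochondrial genome. Flies also carry retrocopies and duplicates of many subunits, named here by a trailing L, and many such copies are known from fly testis.

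All values are log2 signals as deposited. Every array had the same lowest value, 6.91, which is treated as a floor, so a gene at 6.91 was not measured above it. Of the 73 genes, 59 were above the floor on all 25 arrays and 8 were at the floor on all of them. The 8 were ND-B8 and 7 L-named copies, ATPsynCF6L, ATPsynGL, COX4L, COX5BL, COX6AL, SdhBL and UQCR-14L. Of the 52 genes that are not such copies, 48 had a mean over all arrays above 10 and are called the bright subunits below. They comprise 25 genes of complex I, 3 of complex II, 3 of complex III, 7 of complex IV and 10 of complex V. The other 4 were ND-B8, ND-B12, UQCR-11 and the complex II assembly factor Sdhaf3. None of the 21 L-named copies had a mean above 10, and ATPsynepsilonL had the highest of their means over all arrays, 9.70. Over the 8 testis markers measured, 5 were at the floor on all arrays of every group, and their summed linear signal lay between 1122 and 1258 on all arrays.

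The labelled discs could be told by their markers. The thoracic Hox gene Antp averaged 11.22 to 11.94 in leg and wing groups and was at the floor in eye and antennal groups. The wing selector vg averaged 12.28 in wing discs with UAS-ey and 12.40 in those of wild type, and at most 9.59 elsewhere. The head Hox gene Dfd averaged 9.23 in eye discs, 10.51 in antennal discs titled Uey and 11.24 in wild-type ones, and at most 7.06 in leg and wing groups. The photoreceptor factor gl averaged 12.08 in eye discs and between 8.69 and 10.04 in the 3 groups with ectopic ey and no ato mutation. It was at the floor in ato-mutant leg discs and the other wild-type discs. The markers eya and elav were above the floor on all arrays, so they did not divide the groups as gl did. The mean of eya was 12.67 in eye discs and 10.87, 12.07 and 8.15 in ato-mutant, UAS-ey and wild-type leg discs. With ectopic ey and in wild type it was 11.54 and 9.75 in wing and 11.34 and 9.44 in antennal discs. The mean of elav was 9.92, 10.06 and 9.42 in the same leg groups, and from 9.26 (wild-type wing) to 10.76 (eye) over all groups. Differences were tested with limma in 1 fit over all arrays, and a gene was called higher or lower at an adjusted p below 0.05. In bulk samples, fewer cells of a type and less RNA per cell cannot be told apart.

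The bright subunits were close to level across the 8 groups. Averaged over the 48, the log2 signal of an array lay between 11.76 and 12.22. It was 12.08 ± 0.13 in wild-type eye discs (SD, n = 4). In antennal discs it was 12.00 ± 0.02 with Uey and 12.01 ± 0.02 in wild type (SD, n = 3 each). In leg discs it was 11.83 ± 0.09 in ato mutants with UAS-ey, 11.99 ± 0.07 with UAS-ey and 12.06 ± 0.06 in wild type. In wing discs it was 11.85 ± 0.04 with UAS-ey and 11.90 ± 0.17 in wild type. Groups next to each other in the order of these means overlapped in their arrays, but groups further apart did not always. The ato-mutant leg arrays (11.76 to 11.93) lay below all UAS-ey (11.95 to 12.07) and wild-type leg arrays (12.01 to 12.13). The UAS-ey wing arrays (11.81 to 11.89) lay below all arrays of UAS-ey leg, wild-type leg, antennal and eye discs. The arrays that stood apart within a group were wild-type wing replicate 1, with 12.09 against 11.80 in both other replicates, and the eye discs, which spread from 11.92 to 12.22. By gene, the ato-mutant leg discs had the lowest group mean for 24 of the 48, UAS-ey wing discs for 16 and wild-type wing discs for 7. The highest mean fell in wild-type eye discs for 18 genes and in wild-type leg discs for 16.

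**Figure D1:**
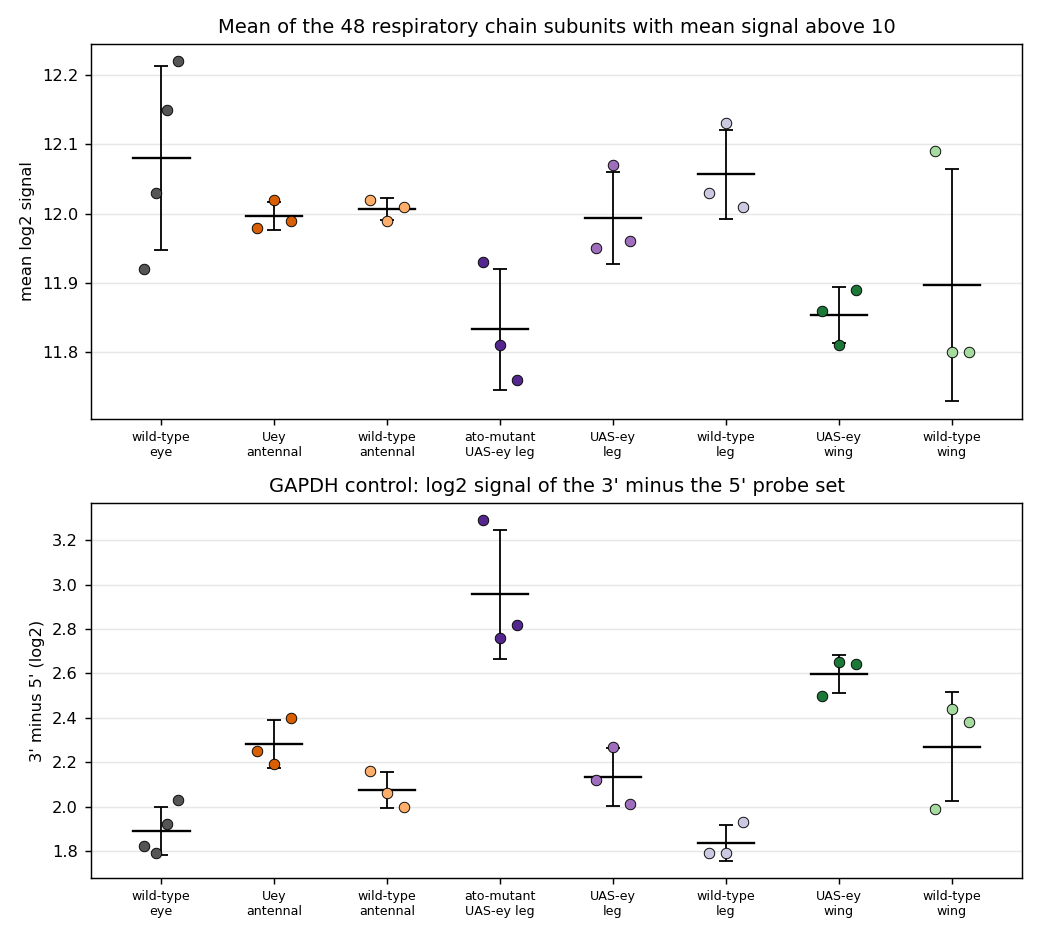
Top, mean log2 signal of the 48 bright respiratory subunits on each array, by group; bottom, log2 difference between the 3' and 5' probe sets of the GAPDH control, a sign of transcript integrity and labelled length, on the same arrays. Points are arrays, lines and bars are mean and SD; ato-mutant leg discs lie lowest in the top panel (11.83 ± 0.09) and highest in the bottom panel (2.96 ± 0.29), and wild-type wing replicate 1 stands above the other wing arrays in the top panel.

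**Figure D2:**
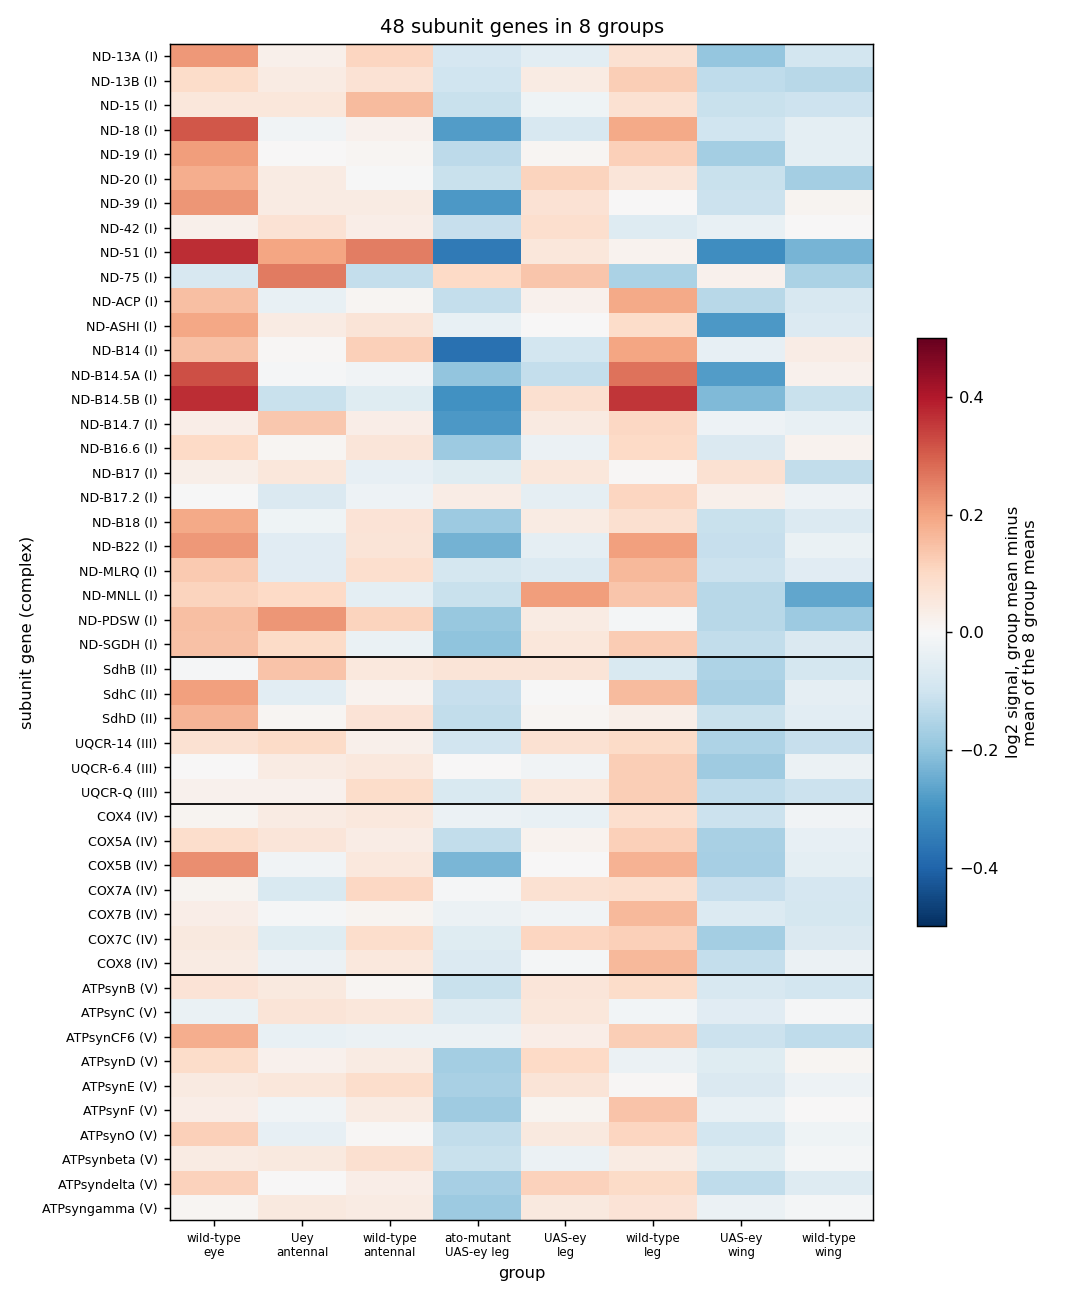
Group mean log2 signal of each of the 48 bright subunits minus the mean of its 8 group means, ordered by complex (I to V), with red above and blue below that mean. The column of ato-mutant leg discs is blue for most rows, with ND-75 and SdhB among the exceptions, and ND-51 shows the widest spread, 0.72 between its highest and lowest group means.

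The 10 genes with the widest range of group means were COX7AL2 (3.55), COX6AL2 (1.44), UQCR-11 (0.90), ND-51 (0.72), ND-B14.5B (0.67), ND-B14.5A (0.60), ATPsynbetaL (0.60), ND-18 (0.59), ND-B14 (0.57) and Sdhaf3 (0.56). Only the first differs by more than 2 log2 units, and it is an L-named copy. ND-B14.5A and ND-B14.5B, accessory subunits of complex I, spread widely within groups: ND-B14.5B had 10.93, 11.01, 11.74 and 12.03 in the 4 eye discs, and 11.84, 10.51 and 10.49 in wild-type wing discs. Neither was called in any of the 11 comparisons.

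Ectopic ey in leg discs changed few respiratory genes. Of the 73, 4 were higher and 2 lower in UAS-ey than in wild-type leg discs, while 19.4% of all probe sets were called (9.02% higher and 10.3% lower). The median change was -0.02 over the 73 genes and -0.07 over the 48 bright subunits, a difference of -4.88%, against 0 over all probe sets. On each array, 25.18% to 33.72% of all probe sets were at the floor, which holds their median near 0. The probe sets with a mean above 10 averaged 11.25 in UAS-ey and 11.30 in wild-type leg discs. ND-75, the iron-sulphur subunit that carries electrons through the matrix arm of complex I, had log2 signals of 10.17, 10.31 and 10.15 in UAS-ey leg discs, against 9.90, 9.87 and 9.95 in wild-type leg discs. The arrays did not overlap, and the rise was 0.30 (SE 0.08, adjusted p = 0.0130). ND-42, an accessory subunit of the same complex, rose by 0.15 (SE 0.05, adjusted p = 0.0292), and ATPsynC, the subunit of the rotating membrane ring of ATP synthase, rose by 0.08 (SE 0.03, adjusted p = 0.0400). ND-MLRQ, whose human relative NDUFA4 has been assigned to complex IV, had 12.88, 13.03 and 12.98 in UAS-ey leg discs, against 13.26, 13.25 and 13.09 in wild-type leg discs, and fell by 0.24 (SE 0.07, adjusted p = 0.0148). The copies ATPsynbetaL (0.52, SE 0.16, adjusted p = 0.0331) and SdhCL (-0.32, SE 0.07, adjusted p = 0.00373) made up the 6. ATPsynbetaL was called in only 8 of 16 settings, with changes from 0.34 to 0.69, and was not called without UAS-ey replicate 1 or 2 or wild-type replicate 1 or 2.

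Several signs of RNA and tissue moved with this comparison, with no overlap of the arrays. The GAPDH 3' minus 5' difference was 2.01 to 2.27 in UAS-ey and 1.79 to 1.93 in wild-type leg discs. That of a second control, eIF-4a, did overlap (2.09 to 2.26 in UAS-ey and 2.09 to 2.34 in wild type). The 3' probe set of phe, a bacterial control transcript, had 8.37 to 8.65 in UAS-ey and 10.37 to 10.89 in wild-type leg discs. Summed signals were 2224 to 3147 in UAS-ey and 10369 to 16833 in wild-type leg discs for 6 salivary gland markers, and 11083 to 12390 and 7457 to 9105 for 3 tracheal markers. Not every marker in these sums moved. The tracheal marker btl was at 7.84 to 7.97 in UAS-ey and 7.88 to 7.94 in wild-type leg discs. The salivary gland marker Sgs1 was at 7.75 to 8.06 and 7.83 to 8.01. With the GAPDH difference or the 3' phe control as a covariate, both chosen after seeing the data, 0 members were higher. The matching counts over all probe sets are not given here, so this loss cannot be read as particular to the respiratory genes. With the mean phe control as a covariate 3 were higher and 0 lower. Of all probe sets, 1067 were then higher and 881 lower, against 1693 and 1939 without it. The part of these signs in the calls was not tested further.

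Of the core subunits that were to be given whatever their test, SdhB, COX4, COX5A, ATPsynbeta and ATPsyngamma did not pass in leg discs, with changes from -0.12 to 0.14 and adjusted p from 0.0572 (COX4, -0.12) to 1. The small counts rested on single arrays. The 4 higher genes became 2, 0 and 3 without UAS-ey leg replicate 1, 2 and 3 and 2 on leaving out any 1 of the wild-type leg replicates, and the 2 lower ones became 1 without UAS-ey replicate 1 or wild-type replicate 2. The ND-75 call was lost with the GAPDH difference (0.19, adjusted p = 0.105) or the 3' phe control (0.50, adjusted p = 0.0574) as a covariate, both chosen after seeing the data. It was also lost without UAS-ey replicate 2 (0.25, adjusted p = 0.0695) and without wild-type replicate 2 (0.29, adjusted p = 0.0536). ND-42, ATPsynC and ND-MLRQ each lost theirs without any of 3 or 4 of the 6 arrays, with adjusted p up to 0.126, 0.200 and 0.0805 on doing so.

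In wing discs, hardly any respiratory gene passed the test. With UAS-ey no member was called higher and 1 lower (limma; 7 had an unadjusted p below 0.05), while 5.32% of all probe sets were called. The 1 was COX7AL, at 6.91 on all 3 UAS-ey arrays and at most 7.02 on any array, so its change of -0.05 lies at the floor. That call was lost on leaving out any array but wild-type replicate 1, without which 1 member was also higher. The median change of the 48 bright subunits was -0.06. ND-75 had 10.17, 10.03 and 10.05 in UAS-ey wing discs, against 9.92, 9.94 and 9.86 in wild-type wing discs. These arrays did not overlap, but the difference of 0.18 (SE 0.08) did not pass (adjusted p = 0.303). SdhB, COX4, COX5A, ATPsynbeta and ATPsyngamma differed by -0.12 to -0.01, with adjusted p of 0.340 or more.

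In antennal discs, 3 members were higher and 1 was lower with Uey than in wild type, where 11.5% of all probe sets were called. The change that stood out was in COX7AL2, a copy of the small complex IV subunit COX7A. Its log2 signals were 10.38, 10.47 and 10.54 in Uey antennal discs, against 6.91, the floor, on all 3 wild-type antennal arrays. The rise was therefore at least 11.7-fold (log2 3.55, SE 0.04, adjusted p = 2.24e-21). Outside Uey antennal discs, COX7AL2 was above the floor on only 2 arrays, UAS-ey wing replicate 2 (6.98) and wild-type wing replicate 2 (7.11). Its ectopic ey effect differed between discs, by -3.55 for leg minus antennal (adjusted p = 1.20e-18) and by -3.60 for wing minus antennal (adjusted p = 9.65e-19).

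Genes of the adult flight muscle moved with it. Of 11 flight muscle markers 8 were measured, and their summed linear signal was 26527 to 27004 in Uey antennal discs, against 1333 to 1342 in wild-type antennal discs and at most 2936 on any array of the other groups. The muscle actin Act88F averaged 13.26 in Uey antennal discs, flightin (fln) 12.64, the troponin C gene TpnC4 11.57 and Mlc2 10.36, and all 4 were at the floor on the wild-type antennal arrays, while Act79B was at the floor on every array. Outside that group the genes did not always go together. Wild-type wing replicate 2 (COX7AL2 7.11) had Act88F at 7.92, and UAS-ey wing replicate 2 (COX7AL2 6.98) had it at 6.99, between the values of the other UAS-ey wing discs, where COX7AL2 was at the floor. In ato-mutant leg discs, where COX7AL2 was at the floor, the muscle genes Mlc1, Tm2 and up were at 10.02 to 10.27, 9.31 to 9.45 and 8.46 to 8.85. On the same arrays fln and TpnC4 were at the floor too, with Act88F at most 7.03 and Mlc2 at most 7.25. The part of muscle cells in the COX7AL2 signal was not tested.

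**Figure D3:**
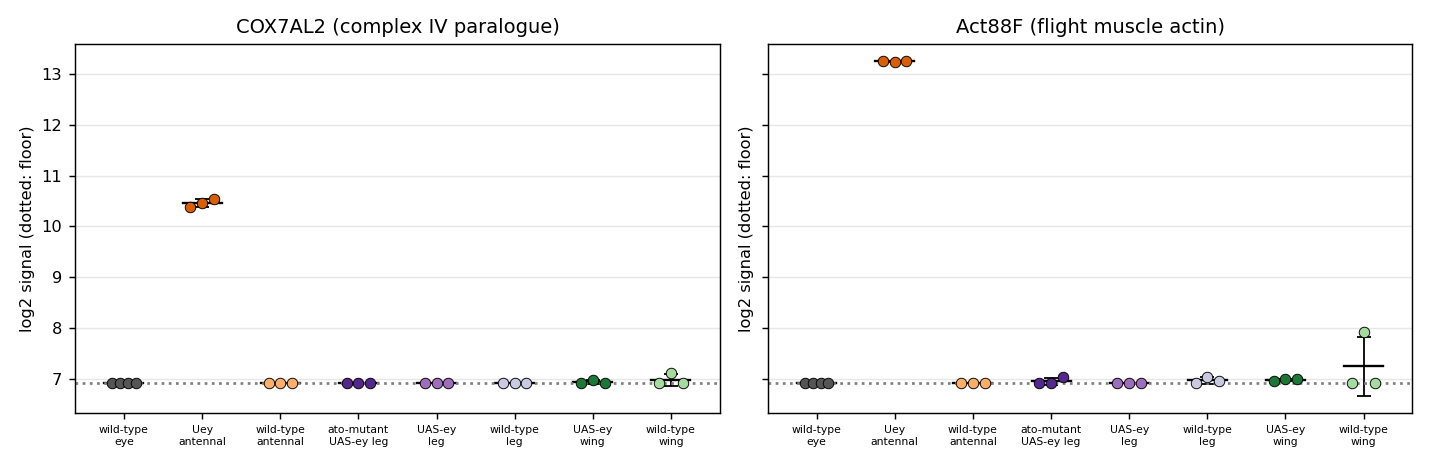
Log2 signal of COX7AL2 (left) and of the flight muscle actin gene Act88F (right) on each array, by group; points are arrays, lines and bars are mean and SD, and the dotted line is the floor at 6.91. In both panels the 3 Uey antennal arrays stand above all others, at 10.38 to 10.54 for COX7AL2 and 13.24 to 13.26 for Act88F.

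No other L-named copy was called in antennal discs. COX7A itself fell, with 12.71, 12.75 and 12.71 in Uey against 12.92, 12.87 and 12.91 in wild-type antennal discs (-0.18, SE 0.05, adjusted p = 0.0156). Leaving out replicate 1 or 3 of either group ended that call (-0.17 each, adjusted p up to 0.0600), which brought the count of lower members to 0. UQCR-11, a small subunit of complex III, had 7.75, 7.84 and 7.84 in Uey antennal discs, against 7.13, 6.91 and 6.96 in wild-type antennal discs, and rose by 0.81 (SE 0.15, adjusted p = 0.00131). Across groups it was at 7.33 to 7.47 in UAS-ey and 6.97 to 7.10 in wild-type leg discs, and at 7.85, 7.01 and 6.91 in UAS-ey wing discs. ND-75 had 10.32, 10.30 and 10.36 in Uey antennal discs, against 9.98, 9.97 and 9.91 in wild-type antennal discs, a rise of 0.38 (SE 0.08, adjusted p = 0.00432). COX7AL2, UQCR-11 and ND-75 were called in antennal discs under all 16 settings tried, with adjusted p up to 1.78e-05, 0.00896 and 0.0235. SdhB, COX4, COX5A, ATPsynbeta and ATPsyngamma differed by -0.03 to 0.10 (adjusted p of 0.764 or more).

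No member was called in the same direction in all 3 ectopic ey comparisons. ND-75 came closest, with non-overlapping arrays in all 3 discs and rises of 0.30 in leg and 0.38 in antennal discs that passed, beside 0.18 in wing discs that did not. The GAPDH difference was higher without overlap in the same 3 groups, at 2.01 to 2.27 in UAS-ey against 1.79 to 1.93 in wild-type leg discs, 2.50 to 2.65 in UAS-ey against 1.99 to 2.44 in wild-type wing discs and 2.19 to 2.40 in Uey against at most 2.16 in wild-type antennal discs. The same difference for a second control, eIF-4a, overlapped between the groups in each disc. With ectopic ey and in wild type it was 2.09 to 2.26 and 2.09 to 2.34 in leg discs. It was 2.41 to 2.58 and 2.30 to 2.50 in wing discs, and 2.37 to 2.42 and 2.22 to 2.41 in antennal discs. With the GAPDH difference as a covariate the antennal call of ND-75 was kept and the leg call was lost (0.19, adjusted p = 0.105). The differences between these effects were 0.13 for leg minus wing, -0.07 for leg minus antennal and -0.20 for wing minus antennal (SE 0.12 each, adjusted p of 0.695 or more). Apart from COX7AL2, limma called no member in a difference between discs, while 7, 4 and 4 members had an unadjusted p below 0.05 in the 3 differences (leg minus wing, leg minus antennal, wing minus antennal), where 4.69%, 2.21% and 0.943% of all probe sets were called. For leg minus wing, leaving out wild-type wing replicate 1 gave 2 higher and 3 lower. The 1 lower member became 2 for leg minus antennal without wild-type leg replicate 3, and for wing minus antennal without UAS-ey wing replicate 1 or wild-type wing replicate 1.

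**Figure D4:**
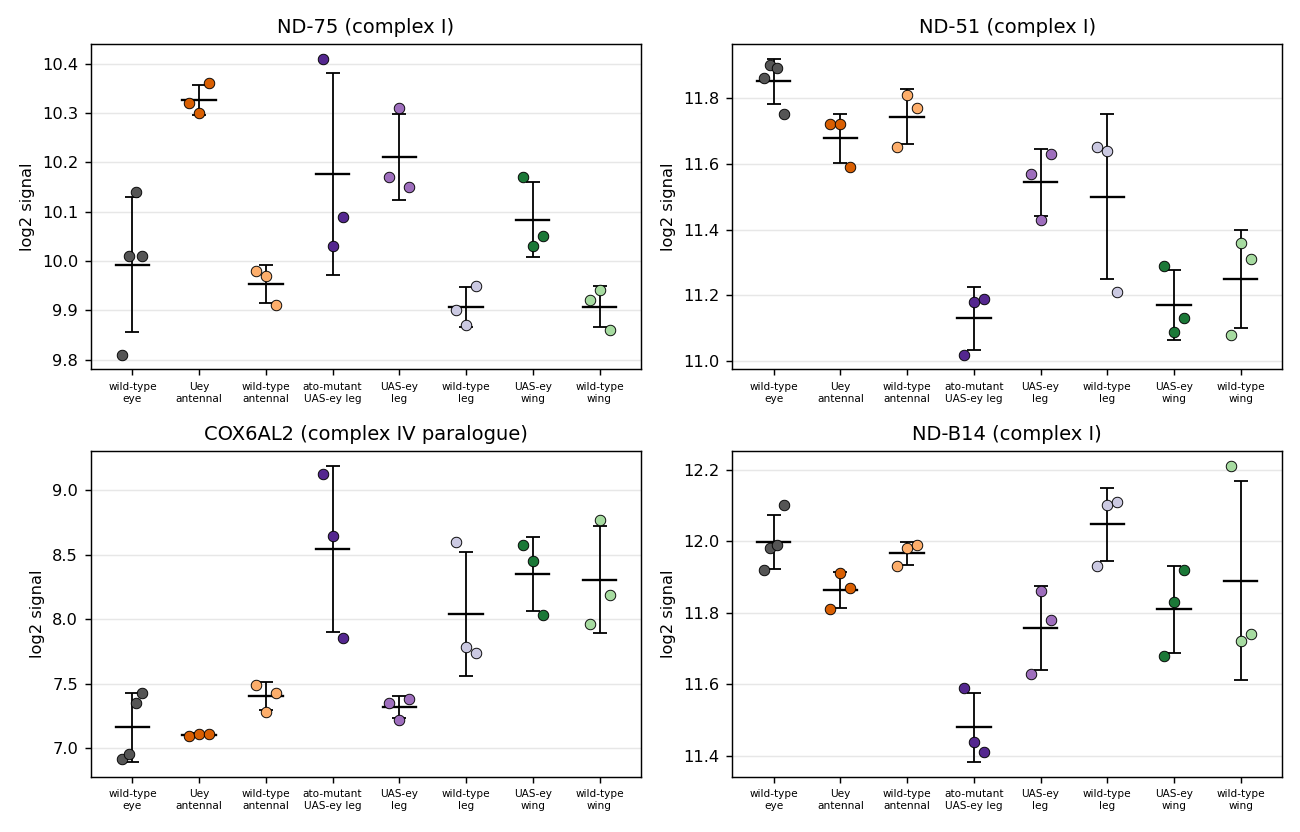
Log2 signal of ND-75, ND-51, the copy COX6AL2 and ND-B14 on each array, by group; points are arrays, lines and bars are mean and SD, and each panel has its own scale. The ND-75 arrays with ectopic ey lie above those of wild type in each disc (in wing discs without passing the test), ND-51 is highest in eye discs (11.75 to 11.90) and low in ato-mutant leg discs (11.02 to 11.19) and wings, and ND-B14 is lowest in ato-mutant leg discs (11.41 to 11.59).

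In ato-mutant leg discs with UAS-ey, a share of the complex V subunits was slightly lower than in either other leg group. In complexes I and IV the share lower against wild-type leg discs, 11 of 25 and 3 of 7, was above the 19.7% of all probe sets with a mean above 10. Against UAS-ey leg discs it was near or below the share of those probe sets. These shares were not compared by a test. The 3 of complex IV, COX5A, COX5B and COX8, were called in only 9, 8 and 9 of 16 settings. Against wild-type leg discs, 22 of the 73 were lower and 1 higher, while 8.87% of all probe sets were lower and 12.3% higher. Among the bright subunits 21 of 48 (43.8%) were lower, beside 19.7% of the 4260 probe sets with a mean above 10. Their median change was -0.21, which is -13.6%, against 0 over all probe sets, many of them at the floor. The 4260 probe sets averaged 11.33 ± 0.06 in ato-mutant, 11.25 ± 0.03 in UAS-ey and 11.30 ± 0.03 in wild-type leg discs (SD, n = 3 each). The arrays of the groups did not overlap for 32 of the 48 in the direction of a lower ato-mutant signal, where 25% of the 4260 probe sets showed this. By complex, 11 of 25 were lower in complex I, 3 of 7 in complex IV and 7 of 10 in complex V, with none of 3 called in complex II or in complex III, where 1 and 2 had an unadjusted p below 0.05. Against UAS-ey leg discs, 15 of the 73 were lower and 2 higher, while 9.03% of all probe sets were lower and 14.5% higher. There 10 of the 48 bright subunits (20.8%) were lower, beside 15% of the 4260, with a median of -0.15 (-9.88%). These were 4 of 25 in complex I, a share near that of the 4260, and 6 of 10 in complex V. None of the 3, 3 and 7 in complexes II, III and IV was called there, and none had an unadjusted p below 0.05 (limma). The arrays did not overlap for 21 of the 48, against 24.4% of the 4260. The wild-type and UAS-ey leg comparisons share the ato-mutant arrays, so their counts are not independent.

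**Figure D5:**
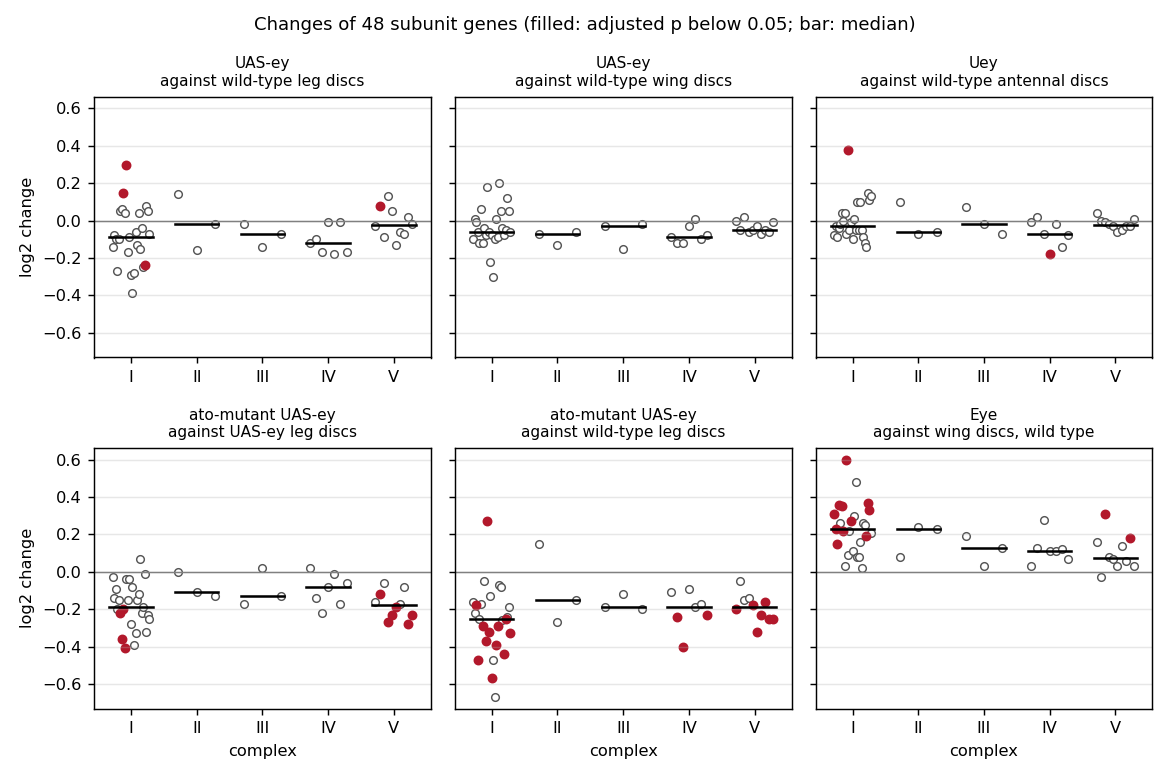
Log2 change of each of the 48 bright subunits by complex (I to V) in 6 comparisons, the first-named group minus the second; filled points had an adjusted p below 0.05 and bars are medians. In the 2 ato-mutant panels most points lie below 0, and in the panel of eye against wing discs most lie above 0. The 48 points of a panel come from the same arrays, so their directions are not independent.

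The largest fall that passed the test against wild-type leg discs was in ND-B14, an accessory subunit of complex I. It had 11.59, 11.44 and 11.41 in ato-mutant leg discs, against 11.93, 12.10 and 12.11 in wild-type leg discs, and fell by 0.57 (SE 0.10, adjusted p = 0.000506). ND-18, the relative of human NDUFS4, had 10.47, 10.33 and 10.30 in ato-mutant discs, against 10.77, 10.98 and 10.76 in wild type (-0.47, SE 0.12, adjusted p = 0.0108). Neither gene's groups overlapped. ND-B22 fell by 0.44 (SE 0.12, adjusted p = 0.0171) and ND-B14.7 by 0.39 (SE 0.13, adjusted p = 0.0401), both membrane arm subunits of complex I.

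In complex IV, COX5B fell by 0.40 (SE 0.13, adjusted p = 0.0375), with 11.54, 11.32 and 11.28 in ato-mutant against 11.67, 11.89 and 11.78 in wild-type leg discs. COX5A fell by 0.24 (SE 0.07, adjusted p = 0.0243) with overlapping arrays. It was called in 9 of 16 settings, with changes from -0.39 to -0.13, and not without ato-mutant replicate 2 or 3 or wild-type replicate 1 or 2. COX4 did not pass (-0.11, SE 0.04, adjusted p = 0.0963). In complex V the catalytic subunit ATPsynbeta had 12.66, 12.66 and 12.69 in ato-mutant discs, against 12.76, 12.82 and 12.89 in wild type (-0.16, SE 0.03, adjusted p = 0.00185), and the rotor shaft ATPsyngamma fell by 0.25 (SE 0.06, adjusted p = 0.00437). ATPsyngamma was lower in ato-mutant than in UAS-ey leg discs too, by 0.23 (SE 0.06, adjusted p = 0.00712). A second probe set for ATPsyngamma gave -0.20 (adjusted p = 0.0491) against wild-type and -0.38 (adjusted p = 0.000773) against UAS-ey leg discs, and a second one for ATPsynbeta gave -0.21 (adjusted p = 0.247) against wild type. The assembly factor Sdhaf3 fell by 0.45 against wild-type (SE 0.15, adjusted p = 0.0334) and by 0.56 against UAS-ey leg discs (SE 0.15, adjusted p = 0.00928). SdhB, the iron-sulphur subunit of complex II, did not pass in either (0.15, adjusted p = 0.321, and 0.00, adjusted p = 1).

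Against UAS-ey leg discs the largest falls that passed among bright subunits were in ND-51, ND-39, ATPsyndelta and ATPsynD. ND-51, the flavoprotein that accepts electrons from NADH, had 11.02, 11.18 and 11.19 in ato-mutant discs, against 11.57, 11.43 and 11.63 in UAS-ey leg discs (-0.41, SE 0.10, adjusted p = 0.00629). ND-39 had 11.61, 11.78 and 11.72, against 12.03, 12.13 and 12.01 (-0.36, SE 0.06, adjusted p = 0.000499). ATPsyndelta, part of the central stalk, fell by 0.28 (SE 0.07, adjusted p = 0.00475) and ATPsynD, part of the peripheral stalk, by 0.27 (SE 0.06, adjusted p = 0.00352). The copy ATPsynbetaL fell by 0.56 (SE 0.16, adjusted p = 0.0179). COX4, COX5A, ATPsynbeta and ND-75 did not pass (0.02, -0.14, -0.08 and -0.04, adjusted p of 0.0737 or more). ND-B17 was not called, but its second probe set gave -0.35 (adjusted p = 0.0133). Those of ATPsynbeta (-0.30, adjusted p = 0.0790), COX7B and ND-ACP did not pass.

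ND-75 went the other way from most of its complex: it was the 1 member higher in ato-mutant than in wild-type leg discs (0.27, SE 0.08, adjusted p = 0.0254), with 10.41, 10.03 and 10.09 against 9.90, 9.87 and 9.95. Without ato-mutant replicate 1 the difference was 0.15 (adjusted p = 0.155), without wild-type replicate 1 it was 0.26 (adjusted p = 0.0630) and without wild-type replicate 2 it was 0.25 (adjusted p = 0.0918). With the GAPDH difference as a covariate it turned to -0.16 (adjusted p = 0.778).

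The falls moved with a sign of RNA quality. GAPDH signal at the 3' end minus that at the 5' end, in log2, was 3.29, 2.76 and 2.82 on the ato-mutant arrays, against 2.12, 2.27 and 2.01 on the UAS-ey and 1.79, 1.79 and 1.93 on the wild-type leg arrays, with no overlap. With this difference as a covariate, an alternative chosen after seeing the data, the members called lower became 1 against wild-type and 2 against UAS-ey leg discs, while the medians over the 73 genes were -0.20 and -0.14, against -0.18 and -0.13 without it. The loss of calls was general: over all 18769 probe sets the lower ones became 82, against 1665 without the covariate, in the wild-type comparison and 165, against 1694, in the UAS-ey comparison. The eIF-4a difference was 2.49 to 2.80 on the ato-mutant, 2.09 to 2.26 on the UAS-ey and 2.09 to 2.34 on the wild-type leg arrays. The part of RNA quality in the result was not tested further. The summed signal of 4 fat body markers was 32508 to 45437 in ato-mutant, 2123 to 9936 in UAS-ey and 4197 to 8119 in wild-type leg discs. For 6 haemocyte markers it was 2939 to 13646 in ato-mutant, 1297 to 1470 in UAS-ey and 1411 to 2116 in wild-type leg discs. For 6 salivary gland markers it was 4559 to 9931, 2224 to 3147 and 10369 to 16833 in the same order, and for 3 tracheal markers 9268 to 13452, 11083 to 12390 and 7457 to 9105. No marker of these lists was at the floor throughout a leg group. For the 8 flight muscle markers it was 2826 to 2936 in ato-mutant, 1225 to 1293 in UAS-ey and 1514 to 1699 in wild-type leg discs, with 3, 6 and 4 of the 8 at the floor. The wing selector vg was at 8.10 to 10.35 in ato-mutant, 6.91 to 8.07 in UAS-ey and 8.47 to 8.87 in wild-type leg discs. The part of these tissues was not tested.

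The count of lower members depended on scaling and on single arrays. Centring each array on its median moved the median of all probe sets by -0.12 against wild-type and -0.15 against UAS-ey leg discs, and then 61 members were lower and 0 higher, and 52 lower and 1 higher. Of all 18769 probe sets, 8547 and 9941 were then lower. When the fit was restricted to the groups compared, 2 members were lower against wild-type and 9 against UAS-ey leg discs. Against wild type, the 22 became 11 without ato-mutant replicate 2 or 3, 13 without wild-type leg replicate 1 and 8 without wild-type leg replicate 2, and the 1 higher became 0 without ato-mutant replicate 1 or wild-type replicate 1 and 3 without ato-mutant replicate 3. Against UAS-ey discs, the 15 became 11 to 19, and the 2 higher members became 1 or 4, with the 4 arising without ato-mutant replicate 3. Single arrays also ended named calls against wild type. Without wild-type replicate 2 the changes were -0.40 for ND-18 (adjusted p = 0.0652), -0.40 for ND-B22 (0.0734), -0.34 for COX5B (0.149), -0.30 for ND-B14.7 (0.191) and -0.38 for Sdhaf3 (0.145). Without ato-mutant replicate 3 they were -0.37 for ND-B22 (0.0676), -0.35 for COX5B (0.114), -0.37 for ND-B14.7 (0.0953) and -0.44 for Sdhaf3 (0.0732). Without ato-mutant replicate 2 they were -0.42, -0.37, -0.31 and -0.43 for the same 4 genes. ND-B14 was called in 15 of 16 settings, the exception being the GAPDH covariate (-0.50, adjusted p = 0.374). Against UAS-ey discs, ATPsynbetaL lost its call without ato-mutant replicate 3 and without UAS-ey replicate 1 or 2 (adjusted p up to 0.0985).

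Among the copies, COX6AL2 ran against the bright subunits. It had 9.13, 8.65 and 7.85 in ato-mutant, against 7.35, 7.22 and 7.38 in UAS-ey leg discs, and was higher by 1.23 (SE 0.28, adjusted p = 0.00396). Its level was also high in wild-type leg discs (8.60, 7.78 and 7.74), UAS-ey wing discs (8.58, 8.45 and 8.03) and wild-type wing discs (7.96, 8.77 and 8.19), and low in eye (6.91, 6.95, 7.35 and 7.43), Uey antennal (7.09, 7.11 and 7.11) and wild-type antennal discs (7.49, 7.28 and 7.43). The signal of the 3' phe control divided the arrays alike: it lay between 9.77 and 11.15 in ato-mutant leg, wild-type leg and wing discs and between 7.89 and 9.50 in UAS-ey leg, antennal and eye discs. With that control as a covariate, the difference of COX6AL2 between ato-mutant and UAS-ey leg discs was -0.08 and was not called. This covariate, chosen after seeing the data, was 10.53 to 11.15 in ato-mutant and 8.37 to 8.65 in UAS-ey leg discs. Those ranges lie apart, so the fit could hardly tell control from group. The COX6AL2 call was kept in 13 of 16 settings, the mean phe control as a covariate among them. Fitting only the groups compared (1.23, adjusted p = 0.115) and the GAPDH covariate (0.40, adjusted p = 0.826) also ended it. SdhCL was likewise lowest in UAS-ey leg discs among the leg groups, with means of 7.39 in ato-mutant, 7.17 in UAS-ey and 7.50 in wild-type leg discs, and was called lower in UAS-ey than in wild-type leg discs and higher in ato-mutant than in UAS-ey leg discs (0.22, SE 0.07, adjusted p = 0.0383). The part of the control's array sets in these signals was not tested further.

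Among wild-type discs, 11 of the 25 bright complex I subunits were called higher in the eye disc than in the wing disc, most of them with overlapping arrays. Over all complexes, 13 members were higher and 4 lower, while 29.6% of all probe sets were called (9.50% higher and 20.1% lower). All 13 were bright subunits, 27.1% of the 48, beside 16.6% of the 4260 probe sets with a mean above 10, and 11 of them belonged to complex I and 2 to complex V. The median of the 48 was 0.16 (11.5%), while the 4260 probe sets averaged 11.23 in eye and 11.29 in wing discs. ND-51 had 11.86, 11.90, 11.89 and 11.75 in eye discs, against 11.08, 11.36 and 11.31 in wing discs, and was higher by 0.60 (SE 0.09, adjusted p = 0.000132), a call kept under all 17 settings tried with adjusted p up to 0.00975. ND-20, which carries the last iron-sulphur cluster before ubiquinone, was higher by 0.35 (SE 0.06, adjusted p = 0.000465) and ND-39 by 0.22 (SE 0.06, adjusted p = 0.0111). For these 3 the arrays of the groups did not overlap, as for 15.5% of the 4260 probe sets, while those of the other 10 overlapped. The 4 lower members were the copies COX6AL2 (-1.15, SE 0.26, adjusted p = 0.00322), SdhCL, COX6CL and COX7AL. Second probe sets of 3 genes not called here passed: COX7B (0.35, adjusted p = 0.0282), ND-B17 (0.30, adjusted p = 0.0182) and ATPsyngamma (0.24, adjusted p = 0.0110). Those of ATPsynbeta and ND-ACP did not.

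The count rested on single arrays. It was 31 without wild-type wing replicate 1 and 3 without wing replicate 2 or 3, and it was 23, 8, 4 and 6 without eye replicate 1, 2, 3 and 4. GAPDH 3' minus 5' was 1.82, 1.79, 1.92 and 2.03 on the eye arrays, against 1.99, 2.44 and 2.38 on the wing arrays, so wing replicate 1, which had the highest subunit mean of its group, also had the lowest difference. With GAPDH as a covariate 2 members were higher, beside 964 of all probe sets against 1783 without it, and the median over the 73 was 0.13, against 0.09 without it. With the replicate number as a block 5 were higher. Fat body markers summed to 563 to 12236 in eye and 6119 to 18995 in wing discs, and salivary gland markers to 3657 to 17191 and 7785 to 26245. Their part was not tested.

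ND-51 was also higher in eye than in leg discs, by 0.35 (SE 0.09, adjusted p = 0.0148). Antennal discs exceeded wing discs in ND-51 by 0.49 (SE 0.10, adjusted p = 0.00450), with 11.65, 11.81 and 11.77 in antennal discs. Without wild-type leg replicate 3, which at 11.21 lay apart from 11.65 and 11.64, the eye to leg difference was 0.21 (adjusted p = 0.104). ND-39 was higher in eye than in leg discs by 0.22 (SE 0.06, adjusted p = 0.0154), and this call was lost without eye replicate 3 (0.19, adjusted p = 0.0509) or leg replicate 3 (0.18, adjusted p = 0.0776). COX6AL2 was lower in eye than in leg discs by 0.88 (SE 0.26, adjusted p = 0.0278), a call lost without eye replicate 1 or 2 or leg replicate 1 (-0.60, adjusted p = 0.204, without the last).

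The other wild-type comparisons held few calls. Against antennal discs, eye discs had 0 members higher and 1 lower, ATPsynC by 0.10 (limma; 4 had an unadjusted p below 0.05), where 10.6% of all probe sets were called. That call was lost without antennal replicate 2 (-0.09) or 3 (-0.08), and without eye replicate 1 or 2 there were 2 or 1 members higher, and without eye replicate 4 there were 2 lower. Against leg discs, eye discs had 2 higher and 2 lower (16.3% of all probe sets), with 4 higher without eye replicate 1 and 0 without leg replicate 3, and with 1 lower without eye replicate 1 or 2 or leg replicate 1. Antennal discs had 0 higher and 1 lower (SdhCL) than leg discs (limma; 9 with an unadjusted p below 0.05), where 5.89% were called, and without leg replicate 3 there were 2 lower. Against wing discs, antennal discs had 3 higher (ND-51, ND-15 and COX7A) and 3 lower (COX6AL2, SdhCL and COX7AL), where 12.9% were called. Without wing replicate 1 the higher members were 18, and without wing replicate 2 there was 1. The lower ones became 1 without any 1 of the antennal arrays or wing replicate 2 or 3. ND-15 was higher by 0.25 (SE 0.06, adjusted p = 0.00958) and COX7A by 0.19 (SE 0.05, adjusted p = 0.0122), and both calls were lost without wing replicate 2 (0.23 and 0.16, adjusted p = 0.0573 and 0.0798), that of ND-15 also without wing replicate 3 and that of COX7A without antennal replicate 1. Leg discs had 2 higher (COX7B by 0.24 and COX7A by 0.17, adjusted p = 0.0466 and 0.0371) and 1 lower than wing discs, where 5.12% were called. A second probe set of COX7B gave 0.33 (adjusted p = 0.131), and another was at the floor on all arrays. There were 28 higher without wing replicate 1, 6 without leg replicate 3 and 0 without any 1 of the other 4 arrays, and the 1 lower remained only without wing replicate 1.

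Other genes of energy metabolism, on lists chosen for the pathway, showed how the subunits compared with their neighbours. Of 10 respiratory subunits and carriers with other names, 1 was higher and 3 lower in ato-mutant than in wild-type leg discs: the adenine nucleotide carrier Ant2 (0.47, adjusted p = 0.000144) against the Rieske protein RFeSP of complex III (-0.41, adjusted p = 1.92e-05), porin (-0.18, adjusted p = 0.00157) and cype of complex IV (-0.24, adjusted p = 0.0497). With ectopic ey, ox, a small complex III subunit, was higher in all 3 discs, by 0.40 in leg, 0.64 in wing and 0.51 in antennal discs (adjusted p = 0.0372, 0.00507 and 0.0123). In the TCA cycle, 3 of 10 genes were higher and 1 lower in UAS-ey leg discs, 2 and 0 in UAS-ey wing discs and 3 and 1 in Uey antennal discs, each against wild type. Of all probe sets, 19.4%, 5.32% and 11.5% were called in these comparisons, in the same order. Idh3a and Idh3g, subunits of NAD-dependent isocitrate dehydrogenase, were higher in all 3, Idh3a by 0.48, 0.23 and 0.40 and Idh3g by 0.82, 0.52 and 0.62 (adjusted p up to 0.0458). The ato-mutant leg discs had Idh3b lower than UAS-ey leg discs by 0.75 (adjusted p = 5.60e-07) and Idh3g lower by 0.93 (adjusted p = 0.000155).

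Glycolysis, measured by 9 genes, had 1 higher and 5 lower in ato-mutant than in wild-type leg discs, and 0 higher and 2 lower (Pfk by -0.37 and Tpi by -0.54) in UAS-ey than in wild-type leg discs. Of 69 mitochondrial ribosomal protein genes, 27 were lower and 1 higher in ato-mutant than in wild-type leg discs with a median of -0.25, and 11 lower and 3 higher in UAS-ey than in wild-type leg discs with a median of -0.16. Of 41 cytosolic ribosomal protein genes, 9 were lower and 1 higher in ato-mutant than in wild-type leg discs, with a median of -0.09. Of 9 regulators of mitochondrial genes and mtDNA maintenance, 5 were higher and 0 lower there, with a median of 0.24, among them ewg (0.68, adjusted p = 0.0113) and mtTFB2 (0.24, adjusted p = 5.98e-05). Of 4 assembly genes, Sirup, an assembly factor of complex II, was higher by 0.92 (adjusted p = 0.000887) and Surf1, of complex IV, was lower by 0.48 (adjusted p = 0.00965). Of all probe sets, 12.3% were higher and 8.87% lower in ato-mutant than in wild-type leg discs, and 19.7% of those with a mean above 10 were lower. In UAS-ey against wild-type leg discs 9.02% were higher and 10.3% lower. These lists share the arrays of the respiratory subunits, GAPDH difference included.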

How the data were processed

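Trizol was used to extract total RNA from the discs, of which 100 ng was amplified and labelled as biotin cRNA, per the labels' protocols. The log2 signals were used as deposited, with 1 value per probe set; their range (6.91 to 14.33) shows the log2 scale. Which software the authors used, and how they scaled the arrays, is not given in the sources used here. The common lowest value, 120.5 on the linear scale, was treated as a floor, so a change from it is a lower bound. With arrays, their number limits the precision. The labels' design text calls the samples biological triplicates.

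Of 18952 probe sets, 183 controls were left out and 18769 tested. Platform annotation gave 13647 probe sets a single gene, 402 several and 4720 none. Differences were tested two-sided with limma 3.58.1 in R 4.3.3: 1 mean per group over all 25 arrays, contrasts and eBayes (17 residual and 0.45 prior degrees of freedom), with p-values adjusted by Benjamini-Hochberg over all 18769. Genes at the floor in some groups can have an SE that understates their spread. The pipeline was tested on simulated data.

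The members, the gene lists, the limit of 10 for bright subunits and the naming rule were chosen with earlier results of these data known. The rule named 10 core subunits in every ey and ato comparison (4 had no probe set of their own), up to 6 rises and 6 falls per comparison among calls whose arrays did not overlap and whose higher mean exceeded the median of all values (7.70), and the 10 members with the widest range of group means. Members outside it are named where a count needed it, after their values were seen; so were the pathway genes given as examples. Summed marker signals are sums of linear values.

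Alternatives were quantile normalization, median centring, leaving out dim probe sets, fitting only the groups compared, the replicate number as a block, the mean phe control as a covariate, the mean of a gene's probe sets, eBayes with trend and robust settings, leaving out each array, and, chosen after seeing the data, the GAPDH difference or the 3' phe control as a covariate. Replicate numbers come from the titles. Same-numbered arrays deviated together, with every correlation over 0.1, only for eye against antennal discs (0.14 to 0.15), where the block changed no count.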

Additional observations from a re-analysis of the deposited data

Results flagged for a closer look

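COX7AL2 was flagged because its ectopic ey effect differed between discs by the test of that difference: -3.55 for leg minus antennal and -3.60 for wing minus antennal. It was above the floor on all 3 Uey antennal arrays (10.38 to 10.54), and the flight muscle markers described above were high on the same arrays.

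Only the 4 eye arrays form a group large enough for a test of single arrays, and chance flags about 1 in 20 such groups. In wild-type eye replicate 1, ND-MLRQ was 13.10, against 13.18 to 13.20 in the other eye arrays, a gap of 0.85 of the range. In wild-type eye replicate 2, UQCR-11 was 7.06, against the floor of 6.91 in the other 3 eye arrays. With those 3 at the floor any value above it would be flagged, so the rate of 1 in 20 does not apply to UQCR-11.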

How the results depend on the processing

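Of 85 called changes of members, 6 were kept under every setting tried: ND-75, COX7AL2 and UQCR-11 in Uey against wild-type antennal discs, ND-51 in eye against wing discs, and COX7AL2 in the differences leg minus antennal and wing minus antennal. Counts of members that moved by over 1.5 times are given here by setting. The cause was not tested. Fitting only the groups compared takes the spread from fewer arrays and from those groups alone, and calls did not always fall with it. In Uey against wild-type antennal discs it gave 2231 higher and 1883 lower of all probe sets, against 1322 and 838 in the main fit. That setting gave 2 higher and 1 lower in UAS-ey leg, 0 lower in UAS-ey wing and 6 lower in Uey antennal discs; 0 higher and 9 lower in ato-mutant against UAS-ey leg discs, and 0 and 2 against wild type. In wild type it gave 0 lower in eye against antennal, 0 higher and 1 lower in eye against leg, 1 and 2 in eye against wing, 0 lower in antennal against leg, 0 and 1 in antennal against wing and 0 and 0 in leg against wing discs, and 1 higher for leg minus wing and 3 lower for leg minus antennal. Quantile normalization gave 0 lower in UAS-ey wing and Uey antennal discs, 1 higher and 27 lower in ato-mutant against UAS-ey leg discs, 0 higher against wild type, 0 lower in eye against antennal, 2 higher in antennal against leg, 5 higher in antennal against wing and 0 and 0 in leg against wing discs, with 2 higher for leg minus wing and 1 higher and 2 lower for leg minus antennal. Median centring gave 1 lower in UAS-ey leg and 0 in UAS-ey wing discs, 1 higher and 52 lower in ato-mutant against UAS-ey leg discs, 0 and 61 against wild type, 1 higher and 0 lower in eye against antennal, 2 lower in eye against wing and 0 and 0 in leg against wing discs. Over all probe sets, centring gave 1987 higher and 9941 lower in ato-mutant against UAS-ey leg discs, against 2721 and 1694 without it, and 1851 and 8547 against wild type, where 2303 and 1665 stood without it. The phe covariate gave 0 lower in UAS-ey leg and 2 in UAS-ey wing discs, 1 higher and 38 lower in ato-mutant against UAS-ey leg discs, 7 lower against wild type, 3 higher in eye against antennal, 7 higher and 1 lower in eye against leg, 0 lower in antennal against leg and 0 and 0 in leg against wing discs. The 3' phe covariate gave 0 and 0 in UAS-ey leg, 0 lower in Uey antennal, 0 higher and 2 lower in ato-mutant against UAS-ey leg, 1 higher in eye against antennal, 1 higher and 0 lower in eye against leg, 2 and 0 in eye against wing, 0 lower in antennal against leg and 0 lower in antennal against wing discs. It reversed COX6AL2 to -0.08 in ato-mutant against UAS-ey leg discs and to 0.19 in eye against leg discs. The GAPDH covariate gave 0 higher in UAS-ey leg, 0 higher and 2 lower in ato-mutant against UAS-ey leg discs, 0 and 1 against wild type, 2 and 1 in eye against wing, 1 lower in antennal against wing and 0 and 0 in leg against wing discs, and 1 higher for leg minus wing. It reversed ND-75 to -0.16 and Sdhaf3 to 0.04 in ato-mutant against wild-type leg discs. Leaving out dim probe sets gave 0 lower in UAS-ey wing, eye against antennal and leg against wing discs, and the mean of a gene's probe sets gave 1 higher in leg against wing discs. With the replicate number as a block there were 0 lower in UAS-ey wing, 5 higher in eye against wing and 0 and 0 in leg against wing discs, and 2 lower for leg minus antennal; in these comparisons same-numbered arrays did not all deviate together, and in eye against antennal discs, where they did, the block changed no count. Leaving out 1 array at a time gave 0 to 3 higher and 1 to 3 lower in UAS-ey leg, 0 to 1 and 0 to 1 in UAS-ey wing, 3 and 0 to 1 in Uey antennal, 1 to 4 and 11 to 19 in ato-mutant against UAS-ey leg and 0 to 3 and 8 to 23 in ato-mutant against wild-type leg discs. In wild type it gave 0 to 2 and 0 to 2 in eye against antennal, 0 to 4 and 1 to 3 in eye against leg, 3 to 31 and 3 to 4 in eye against wing, 0 and 1 to 2 in antennal against leg, 1 to 18 and 1 to 3 in antennal against wing and 0 to 28 and 0 to 1 in leg against wing discs. For the differences it gave 0 to 2 and 0 to 3 (leg minus wing), 0 and 1 to 2 (leg minus antennal) and 0 and 1 to 2 (wing minus antennal). The trend and robust settings moved no count by that much.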
